A study of Arabidopsis thaliana with 4 samples.

Results

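The GH3 family of Arabidopsis thaliana encodes acyl acid amido synthetases, enzymes that join plant hormones to amino acids. Transcripts of 5 family genes, GH3.1, GH3.3, GH3.5, GH3.9 and GH3.17, were followed in expanded leaves of plants grown in short days. They were taken as every probe set that the platform annotation pairs with exactly 1 gene of these names, and each gene had 1 such probe set, out of 22746 probe sets tested. GH3.5 stands in that annotation under its other name, WES1, and was found through the RefSeq synonym. Of 19 GH3 genes listed for the family, these 5 had such a probe set, and the other family genes are not analysed here. Of 11 listed names outside the auxin-related lists, only 3 matched a locus in the reference, so the rest could not be looked up. The arrays came from jaw-D, a mutant in which the microRNA miR319a is overexpressed, and from its wild-type counterpart, the Columbia accession, with 2 arrays of total RNA from each. Nothing in the labels says whether arrays of a genotype came from separate plants, so every p-value rests on a spread between arrays that may be technical.

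Most GH3 enzymes of the auxin group activate indole-3-acetic acid with ATP and attach it to an amino acid, which removes active auxin from the pool. Transcripts of GH3.1, GH3.3 and GH3.5 are classic early auxin-response transcripts, so these genes are both targets of auxin signalling and part of its negative feedback. GH3.9 and GH3.17 belong to the same enzyme group but are not known for rapid induction by auxin. In leaves, miR319 lowers the transcripts of TCP transcription factors that limit cell proliferation at the leaf margin, and jaw-D leaves are crinkled.

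The arrays had been scaled by the authors to a common trimmed mean signal. Median signals were 74.6 and 76.5 on the jaw-D arrays and 76.7 and 77.2 on the Columbia arrays. Dim signals were more frequent in the mutant, with 22.3% and 21.7% of probe sets under 16 on the jaw-D arrays, against 17.8% and 18.4% on the Columbia arrays. A GAPDH control, read at its 3' and 5' ends, gave a 3' over 5' ratio of 2.06 and 1.36 on jaw-D arrays 1 and 2, against 1.41 and 1.43 on Columbia arrays 1 and 2. Leaf markers were bright, with signals of LHCB4.1, a light-harvesting protein gene, from 10115 to 11528 in jaw-D and from 11541 to 13089 in Columbia. Of 6 leaf mesophyll markers 2 were measured, and the 3 measured of 5 root markers reached at most 28.7 in jaw-D and 46.4 in Columbia, with log2 differences, jaw-D minus Columbia, of -0.49 for EXPA18 (unadjusted p of 0.027), -0.04 for EXPA7 and 0.17 for PYK10. Of 4 stomatal lineage markers 3 were measured, with 0.47 for SPCH, 0.12 for FAMA and -0.09 for MUTE, and the 1 measured of 4 trichome markers, TRY, had -0.37. None of these markers passed in limma, and their part in the GH3 results was not tested.

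GH3.5 was the member with the clearest difference. This gene (AT4G27260) encodes an enzyme that conjugates auxin and can also act on salicylate. Its probe set read 21.6 and 28.1 on the jaw-D arrays, against 89.9 and 96.9 on the Columbia arrays. Both mutant arrays thus lay far below both Columbia arrays, and the gap between genotypes was much wider than the gap between arrays of 1 genotype. Mean signals were 24.9 ± 4.60 in jaw-D and 93.4 ± 4.95 in Columbia (SD, n = 2 arrays each), and the larger mean was 3.76 times the smaller. That ratio is uncertain, because the background of the probe set is unknown and its jaw-D signals were dim, at percentiles 28 and 33 of their arrays. After log2(signal + 16), where the added 16 damps changes of dim probe sets, the difference of jaw-D minus Columbia was -1.43 ± 0.16 (SE), with a 95% confidence interval of -1.82 to -1.03. In the limma fit over all probe sets the unadjusted p was 1.4e-04 and the Benjamini-Hochberg adjusted p was 0.0578, just short of the threshold of 0.05. Only 0.33% of all probe sets had a difference as low or lower. Set against the Columbia mean on this scale, jaw-D array 1, which had the high GAPDH ratio, was at -1.54 and jaw-D array 2 at -1.31. With a pseudocount of 64 it was -0.83. In whole-leaf RNA, fewer cells of a type and less RNA per cell cannot be told apart.

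GH3.3 (AT2G23170), another auxin-conjugating enzyme gene, had almost no signal in the mutant. Its probe set read 0.6 and 0.9 on the jaw-D arrays, against 41.8 and 12.5 on the Columbia arrays. The genotypes did not overlap, but the Columbia arrays differed from each other by more than the weaker of them differed from jaw-D. Signals averaged 0.75 ± 0.21 in jaw-D and 27.2 ± 20.7 in Columbia (SD, n = 2 arrays each). The log2 difference was -1.28 ± 0.33 (SE), with a 95% interval of -2.10 to -0.45, an unadjusted p of 0.00927 and a limma adjusted p of 0.242. No ratio of means is given, because the jaw-D signals were at the bottom of the scale and the background of the probe set is unknown. The value depended on how dim signals were treated, at -3.79 with a pseudocount of 1, -0.47 with a pseudocount of 64, and -0.50 with signals under 20.9 raised to that floor. The floor made all arrays but Columbia array 1 equal, so that value rests on Columbia array 1 alone (limma unadjusted p of 0.364). Without Columbia array 1 it was -0.77. After quantile normalization it was -1.21. That step keeps the order of probe sets within each array, so the jaw-D signals stay at the bottom and the value does not test the part of the dim signals. That part was not tested.

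GH3.1 (AT2G14960), the other member of the auxin-induced type, was dim on every array. Its signals were 2.8 and 11.8 on the jaw-D arrays, against 7.1 and 12.1 on the Columbia arrays, and the genotypes overlapped. The log2 difference was -0.16 ± 0.23 (SE), with a 95% interval of -0.74 to 0.42 and a limma adjusted p of 0.840. It turned to 0.13 without jaw-D array 1. At signals this low, a difference in GH3.1 was not detectable.

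GH3.9 and GH3.17 did not share the low signals of GH3.3 and GH3.5 in the mutant. GH3.9 (AT2G47750), which encodes a family member studied for its part in root growth, read 45.6 and 62.9 on the jaw-D arrays, against 33.7 and 51.8 on the Columbia arrays. Array 2 was the brighter one in each genotype, and the ranges overlapped. Its log2 difference was 0.26 ± 0.22 (SE), with a 95% interval of -0.28 to 0.81 and a limma adjusted p of 0.679. Leaving out jaw-D array 2 gave 0.09 and leaving out Columbia array 1 gave 0.04, while the highest value with an array left out was 0.49. GH3.17 (AT1G28130), also called VAS2, encodes an enzyme that joins auxin to glutamate. It read 39.1 and 46.0 on the jaw-D arrays, against 33.8 and 26.6 on the Columbia arrays, so that both mutant arrays were the higher ones. The difference was 0.34 ± 0.16 (SE) on the log2 scale, with a 95% interval of -0.06 to 0.75, an unadjusted p of 0.0841 and a limma adjusted p of 0.457. Both intervals include 0 and leave room for a sizeable rise, but neither reaches down to the difference measured for GH3.5. With quantile normalization GH3.17 was at 0.47, with a limma unadjusted p of 0.0264 and an adjusted p of 0.36.

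**Figure D1:**
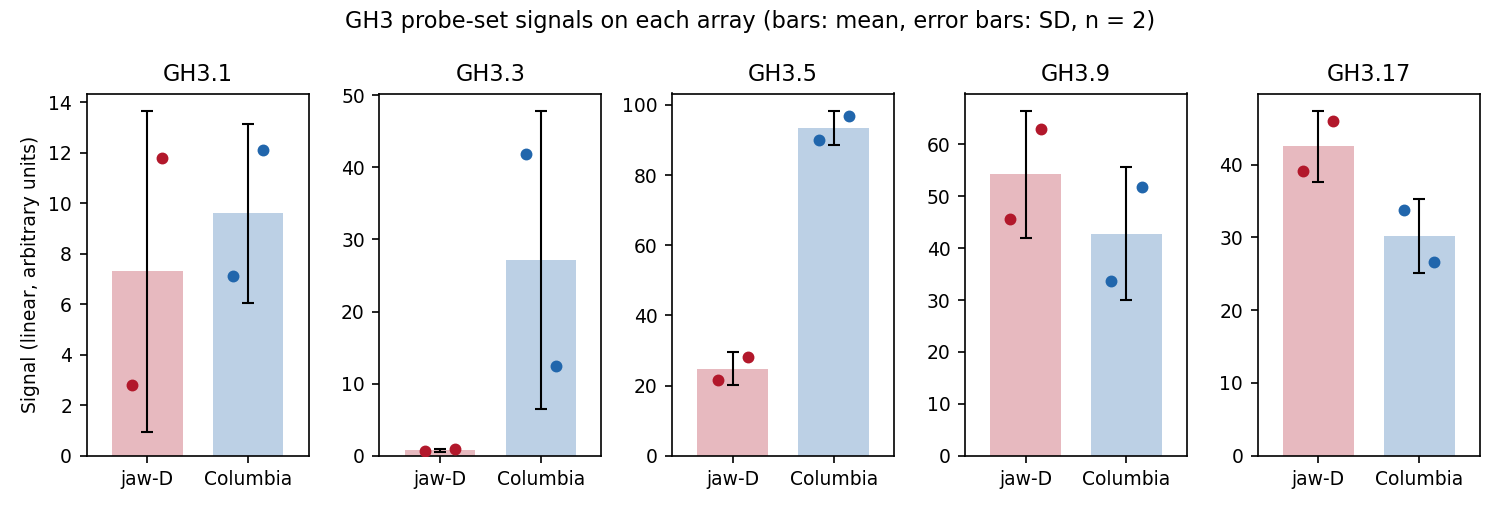
Linear probe-set signals (arbitrary units) of the 5 GH3 genes, with a point for each array, bars for the mean and error bars for the SD (n = 2 arrays per genotype), jaw-D left of Columbia. The vertical scale differs between panels, and the GH3.5 points of jaw-D (21.6 and 28.1) lie far below those of Columbia (89.9 and 96.9), while GH3.1 and GH3.9 overlap.

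Counted over the family, 0 of 5 members passed the adjusted threshold, against a background of 0.189% of all probe sets, 0.154% lower in jaw-D. At an unadjusted p under 0.05 there were 2 of 5, GH3.3 and GH3.5, both lower in jaw-D, where 13% of all probe sets had such a p, 8.47% with the lower and 4.53% with the higher signal in jaw-D. Arrays of the genotypes did not overlap for 3 of 5 members, 2 lower and 1 higher in jaw-D, against 44% of all probe sets, 26.5% lower and 17.5% higher in jaw-D. With 5 members these counts are descriptions only. When probe sets with a mean signal under the 25th percentile were left out, 3 of 5 members were tested and GH3.5 passed, with a limma adjusted p of 0.0091, where 1.31% of 17060 probe sets were called. The share of all probe sets with a difference as low or lower was 0.43% for GH3.3, 33.0% for GH3.1, 87.4% for GH3.9 and 91.5% for GH3.17.

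**Figure D2:**
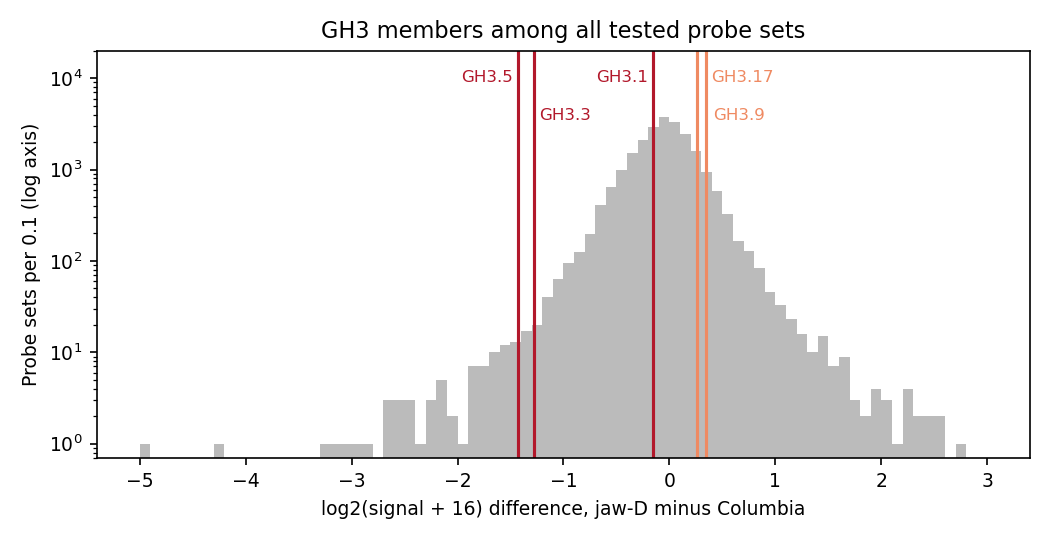
Histogram of log2(signal + 16) differences, jaw-D minus Columbia, over the 22746 probe sets tested (count per bin on a log axis), with a vertical line for each GH3 gene. GH3.5 at -1.43 and GH3.3 at -1.28 lie in the lower tail, and GH3.1, GH3.9 and GH3.17 lie between -0.16 and 0.34.

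Set against each other within arrays, the members gave unequal differences. The log2 signal of GH3.5 minus that of GH3.17, taken in each array, had a jaw-D minus Columbia difference of -1.77, and GH3.5 minus GH3.9 had one of -1.69. For GH3.3 the same contrasts were -1.62 against GH3.17 and -1.54 against GH3.9. Against the dim GH3.1, GH3.5 had -1.27 and GH3.3 had -1.12. GH3.1 was dim in Columbia too, and the pseudocount damps changes of dim probe sets. Even a full loss of GH3.1 signal in jaw-D could not have matched the differences of GH3.5 and GH3.3 on this scale. These contrasts therefore cannot tell whether GH3.1 departed from GH3.5 and GH3.3. GH3.1 itself had -0.42 against GH3.9 and -0.50 against GH3.17. GH3.5 minus GH3.3 gave only -0.15, and GH3.9 minus GH3.17 only -0.08, within the spread between arrays of a genotype. The likeness of GH3.5 and GH3.3 depended on how dim signals were treated. With a pseudocount of 1 their differences were -1.88 and -3.79, and with the floor of 20.9 they were -1.92 and -0.50. The contrasts between members reuse the same 5 genes and are descriptions. The smallest two-sided p that an exact permutation test allows with 2 arrays in each genotype is 0.333, so that test was not used for them.

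Other auxin genes gave a wider view, although few could be named. Over lists for Aux/IAA repressors, SAUR genes, ARF factors, receptors, synthesis, inactivation and transport, 14 of 203 genes were measured. None of these 14 passed the adjusted threshold in limma, 2 had an unadjusted p under 0.05, and both were lower in jaw-D, a share close to the 13% of all probe sets. Their median log2 difference was -0.12, beside -0.04 over all probe sets. The SAUR, ARF and receptor lists and the TCP targets of miR319 had 0 genes with a probe set of exactly 1 gene. They are not analysed here. The annotation left 8730 tested probe sets unnamed and paired 503 with several genes, so genes of these lists may still be on the array.

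IAA29, which encodes a repressor of auxin-responsive transcription, stood nearest to GH3.5 in size among the 14 measured genes. It read 70.7 and 61.0 on the jaw-D arrays, against 157.5 and 179.3 on the Columbia arrays. Both mutant arrays were below both Columbia arrays, with a log2 difference of -1.17 ± 0.16 (SE) and an adjusted p of 0.0935, which became 0.0196 when probe sets under the 25th percentile of mean signal were left out. The other 6 measured Aux/IAA genes lay between -0.43 (IAA20) and -0.06 (IAA33), and none had an unadjusted p under 0.05. IAA20 read 2.5 and 30.6 on the Columbia arrays, and its difference was -1.10 without Columbia array 1 and 0.23 without Columbia array 2. IAA31, IAA34 and IAA30, with -0.27, -0.13 and -0.15, came from dim probe sets, and IAA30 read 42.7 and 8.7 on the Columbia arrays. IAA18 had -0.12. For synthesis, YUC2, a flavin monooxygenase gene of the main route to auxin, read 61.8 and 65.9 on the jaw-D arrays, against 88.5 and 105.4 on the Columbia arrays. Its log2 difference was -0.50 ± 0.16 (SE), with an unadjusted p of 0.0208 and a limma adjusted p of 0.299. YUC4, YUC6 and YUC11, of the same enzyme family, had -0.59, -0.08 and -0.0046, all on dim signals. YUC4 was -0.06 when jaw-D array 1 was left out and -1.11 when array 2 of that genotype was, and the sign of YUC6 and YUC11 turned with quantile normalization.

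Of 15 genes listed for auxin inactivation and release, only 2 were measured, and neither showed the low jaw-D signals of GH3.3 and GH3.5. UGT74D1, which encodes a glucosyltransferase able to act on auxin, read 231.1 and 327.9 on the jaw-D arrays, against 245.4 and 202.2 on the Columbia arrays. The genotypes overlapped, with a log2 difference of 0.29 ± 0.21 (SE) and an adjusted p of 0.640. Leaving out jaw-D array 1 gave 0.53, and leaving out array 2 of that genotype gave 0.05. UGT84B1, which encodes another auxin glucosyltransferase, had 0.29 ± 0.26 (SE). Its signals were dim, at 12.4 and 13.5 in jaw-D and 14.4 and 2.4 in Columbia, where a fall would be hard to see. WAG2, from the transport list, is a kinase gene acting on auxin transport proteins and had 0.23 ± 0.34 (SE). The sign of UGT84B1 and WAG2 turned when 1 Columbia array was left out.

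**Figure D3:**
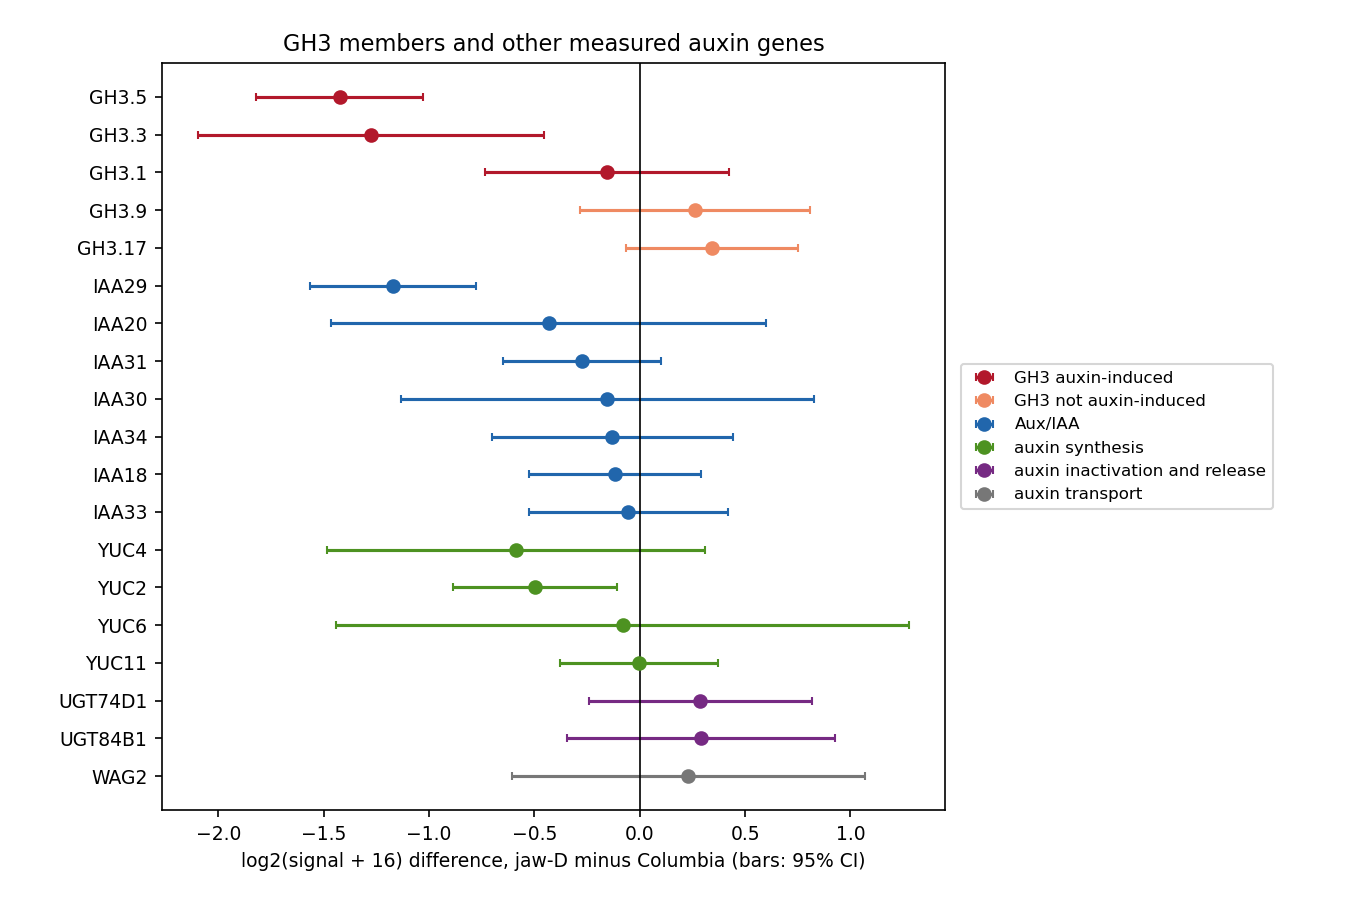
Differences of log2(signal + 16), jaw-D minus Columbia, for the 5 GH3 genes and the 14 other measured auxin genes, coloured by list, with 95% confidence intervals of the limma fit that are not adjusted for the number of probe sets. The intervals of GH3.5, GH3.3, IAA29 and YUC2 lie below 0, and all others include 0.

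Likeness of pattern was measured as the Euclidean distance between log2 values over the 4 arrays, each centred on its own mean, among 13512 other probe sets of 1 gene. The nearest to GH3.5 were the jasmonate-responsive defensin gene PDF1.2b, whose probe set design can also bind related transcripts, at 0.16, AT5G57760 at 0.20 and the defensin gene PDF1.2 at 0.21. These 3 had log2 differences of -1.48, -1.52 and -1.56. The nearest to GH3.3 were OSM34, an osmotin gene, at 0.31, the defensin-like gene LCR59 at 0.38 and TBL26, of the trichome birefringence-like family, at 0.46, with differences of -1.11, -1.11 and -0.95. Nearest to GH3.17 were bZIP19, a zinc-deficiency regulator, at 0.02, AT1G10110 at 0.03 and AT2G46200 at 0.03, with differences of 0.34, 0.34 and 0.32. AT5G07730, AT3G30460 and AT1G12720 were nearest to GH3.1, and AT4G30500, AT1G10417 and AT3G19300 to GH3.9. With 4 arrays, any gene with the same sized step between genotypes comes close, so these distances describe shape only.

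In the gene order of the TAIR10.1 reference, the 2 protein-coding genes on each side of every member were also examined. Of these 20 genes 12 were measured, and limma called 0 of them (4 at an unadjusted p under 0.05, where 13% of all probe sets had such a p), with log2 differences from -0.68 to 0.63. Beside GH3.5, which had -1.43, AT4G27240 had 0.63, AT4G27250 had -0.32, AT4G27270 had -0.26 and AT4G27280 had -0.64. The unadjusted p was 0.0061 for AT4G27240 and 0.00894 for AT4G27280, and their limma adjusted p were 0.216 and 0.238.

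**Figure D4:**
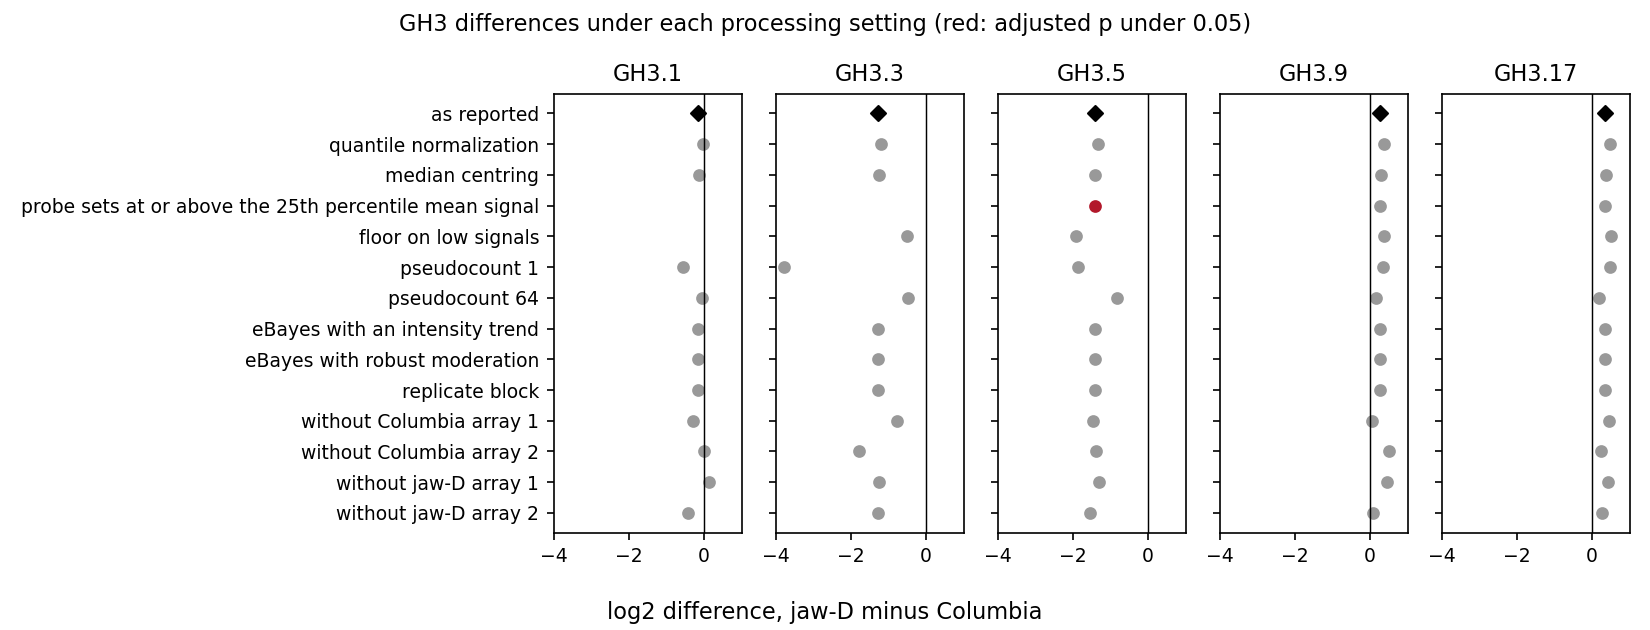
Differences of log2 signals, jaw-D minus Columbia, of each GH3 gene under every processing setting that gave a value (rows), with a diamond for the value as reported and red for an adjusted p under 0.05. GH3.5 stays between -1.92 and -0.83 and GH3.3 ranges from -3.79 to -0.47, while GH3.1 crosses 0 when jaw-D array 1 is left out.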

How the data were processed

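The authors deposited linear signal intensities per probe set, already scaled between arrays, as the values show. For the software and the scaling target the sources used here give nothing, and there are no detection calls. Of 22810 rows, 64 array controls were left out of the tests. Signals were transformed as log2(signal + 16), a fold on that scale understating changes of dim probe sets. Each difference was tested in limma 3.58.1 (lmFit, eBayes; R 4.3.3; 2 residual and 3.76 prior degrees of freedom), two-sided, with Benjamini-Hochberg adjustment over 22746 probe sets and a threshold of 0.05. Having 4 arrays limits the precision.

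Of the tested probe sets, 13513 were paired with 1 gene, 503 with several genes, and 8730 were not named. A gene is called measured only where a probe set was paired with it alone. Named genes are the GH3 members, up to 4 measured genes of each auxin list by unadjusted p (all 7 Aux/IAA genes appear, 3 of them chosen after their values were seen), and the 3 probe sets nearest to each member. Genes beside the members were added after the data were seen. The TAIR10.1 RefSeq table served for names and gene order. Members and lists were chosen with earlier results of these data known. Alternatives were other normalizations, filters, a floor, pseudocounts, variance moderation, a replicate block and leaving out each array. Deviations of same-numbered arrays from their genotype means had a correlation of -0.0743, and nothing in the labels pairs them. 0 columns were left unassigned.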

Additional observations from a re-analysis of the deposited data

How the results depend on the processing

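No GH3 member was called under any setting except GH3.5 over probe sets at or above the 25th percentile of mean signal, where 1 member was called (log2 difference -1.43, adjusted p 0.0091) and fewer probe sets were tested. Over all its settings the adjusted p of GH3.5 ran from 0.0091 to 0.416. At or above the median mean signal 0 members remained for testing. GH3.3, GH3.5, GH3.9 and GH3.17 kept their direction under every setting that gave a value. GH3.1 had no value with the floor, which all its signals lay under, and ran from -0.44 to 0.13 when 1 array was left out. Over all probe sets the 43 calls became 291 and 224 with the filters at the median and the 25th percentile, 103 with an intensity trend, 66 with the replicate block, 1 with the floor (2704 at an unadjusted p under 0.05) and 0 with a pseudocount of 1 (2538 at an unadjusted p under 0.05) or without any 1 array (1978 to 2492). In the last case a lone array is assumed to vary like the other genotype. The replicate block, whose numbers are shared by name only, called 0 members, with an adjusted p of 0.0613 for GH3.5 and 0.194 for GH3.3. Among dim auxin genes, YUC6 turned to 0.0425 with quantile normalization and 0.0697 with the floor, and YUC11 to 0.0361 with quantile normalization and 0.017 with median centring. WAG2 turned to -0.0304 with the floor. Leaving out 1 array gave ranges of -0.80 to 0.64 for YUC6, -0.0737 to 0.0645 for YUC11, -0.28 to 0.74 for WAG2, -1.10 to 0.23 for IAA20 and -0.0708 to 0.65 for UGT84B1. The cause of these turns was not tested.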
